A study of Mus musculus with 5 samples.

Results

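The replication-dependent histone genes encode the core and linker histones that package new DNA during S phase. They were taken as every gene of the deposited all-gene table whose symbol begins with Hist1h, Hist2h, Hist3h or Hist4h. That rule gave 13 of the 20097 gene symbols listed, and the longest region was used where a symbol had several. By class they are 2 linker histones H1 (Hist1h1c and Hist1h1d), 2 histones H2A (Hist1h2ac and Hist3h2a), 5 histones H2B (Hist1h2bc, Hist1h2be, Hist1h2bp, Hist1h2br and Hist2h2be), 3 histones H3 (Hist1h3f, Hist2h3c1 and Hist2h3c2) and 1 histone H4 (Hist4h4). By locus, 8 lie in the Hist1 cluster on chromosome 13, 3 in the Hist2 cluster on chromosome 3, 1 at Hist3 on chromosome 11 and 1 at Hist4 on chromosome 6.

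RNA came from pituitaries of littermate mouse embryos at e12.5, on a B6;129 background, labelled as epithelial pituitary cells. The 2 knockout libraries, numbered 13 and 16, carried floxed Itgb1 alleles (Itgb1 f/f) and the Pitx1-cre transgene, whose recombinase acts in oral ectoderm and the pituitary derived from it. The 3 control libraries, numbered 9, 10 and 12, carried floxed Itgb1 without the transgene, so the floxed alleles are shared by both groups. Itgb1 encodes integrin beta 1, a receptor subunit for extracellular matrix. The labels call the libraries separate biological replicates.

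Messages of this gene family typically end in a short RNA stem-loop in place of a poly(A) tail. The stem-loop binding protein Slbp holds this hairpin, and with the U7 small nuclear ribonucleoprotein it directs cleavage just downstream. The messages accumulate while DNA is copied and are degraded when replication stops, so in embryonic tissue they are known for tracking cells in S phase. Libraries made by removing ribosomal RNA, as here, keep RNA without a poly(A) tail.

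The stem-loops are shown because they mark the processed end of these messages, against which counted regions are placed. One was found in an annotated transcript of 10 of the 13 genes and in none of Hist1h2bc, Hist1h2br and Hist2h2be under the rule used. They were read from GENCODE vM21 transcripts (GRCm38) with 5 bases on each side, 5′ to 3′, as the DNA letters of the RNA. Capitals mark the 16 bases of the hairpin, a 6-base stem opening with GG around a 4-base loop opening with TTT.
Hist2h3c2: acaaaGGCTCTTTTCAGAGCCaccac
Hist2h3c1: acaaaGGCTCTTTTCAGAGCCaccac
Hist1h3f: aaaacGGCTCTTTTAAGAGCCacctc
Hist1h1c: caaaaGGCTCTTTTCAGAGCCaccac
Hist1h1e: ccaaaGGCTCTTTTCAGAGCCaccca
Hist1h2be: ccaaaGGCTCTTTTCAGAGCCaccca
Hist1h2ac: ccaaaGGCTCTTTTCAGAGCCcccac
Hist4h4: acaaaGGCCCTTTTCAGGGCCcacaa
Most of these hairpins have the same letters, whatever the histone class, while Hist1h3f differs within the loop and Hist4h4 within the stem. The hairpin was found in 46 of 78 transcripts of annotated Hist1 to Hist4 genes (59.0%), and in 118 of all 141767 GENCODE transcripts (0.0832%). Hist1h1e, a linker histone gene, is included because a region listed under another histone symbol lies at its position.

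Promoters from RefSeq (GRCm38.p6, windows around the transcription start) were matched for 10 of the 13 genes, as 11 windows, and for Hist1h1e. They are shown because members of different classes had their highest value in one library and their lowest in the same other library. That order was held by 6.98% of all genes tested, and whether promoter sequence has a part in it was not tested. Capitals mark the TATA box letters TATAA, the CCAAT box by its name, and ATTTGCAT, the octamer bound by the transcription factor Pou2f1, each on either strand.
Hist2h3c2, chr3:96239078-96239377, minus strand: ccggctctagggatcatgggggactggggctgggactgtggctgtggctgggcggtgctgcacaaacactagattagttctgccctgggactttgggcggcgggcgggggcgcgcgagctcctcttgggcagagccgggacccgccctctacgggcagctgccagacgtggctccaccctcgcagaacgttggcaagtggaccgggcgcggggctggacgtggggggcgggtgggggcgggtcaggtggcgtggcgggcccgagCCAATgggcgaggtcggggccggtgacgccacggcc
Hist1h1e, chr13:23622509-23622808, minus strand: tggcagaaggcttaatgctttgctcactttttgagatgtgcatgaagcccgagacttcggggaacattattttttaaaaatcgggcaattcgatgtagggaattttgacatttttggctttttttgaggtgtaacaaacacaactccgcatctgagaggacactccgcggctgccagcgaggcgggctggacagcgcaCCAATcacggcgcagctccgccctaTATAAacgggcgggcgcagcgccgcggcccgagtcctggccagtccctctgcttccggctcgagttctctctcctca
Hist1h2be, chr13:23585921-23586220, minus strand: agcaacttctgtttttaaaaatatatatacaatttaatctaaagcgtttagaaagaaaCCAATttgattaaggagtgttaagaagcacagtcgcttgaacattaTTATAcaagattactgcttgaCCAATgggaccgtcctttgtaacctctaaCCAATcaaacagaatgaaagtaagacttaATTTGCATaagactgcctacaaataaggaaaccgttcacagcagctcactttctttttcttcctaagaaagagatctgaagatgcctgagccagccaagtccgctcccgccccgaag
Among the 11 windows of members, CCAAT stood in 10, against 37.4% of 32851 promoter windows, and TATAA in 7, against 24.9%. The octamer stood in 3 of the 11, those of Hist1h2ac, Hist1h2be and Hist3h2a, against 1.74%. The Hist1h2be window is at the start nearest its coding bases, and no marked matches overlap in the sequences shown. A match of letters is a description of the window and not a measured site.

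Each value counts the tags in a gene's region, scaled to 10000000 tags for the whole library, and levels are in this unit unless given per kilobase. The region of a gene was not its whole length. Set against the mm9 gene positions that the authors' deposited table of changes gives, 389 of 490 plus-strand genes (79.4%) had a region starting 800 bp inside the gene and ending with it. Of 529 minus-strand genes, 431 (81.5%) had regions 400 bp inside each end. Histone genes are short: of 67 protein-coding Hist1 to Hist4 genes in GENCODE, 48 span under 1002 bp and none of these is listed, while 13 of the 19 longer ones are. The germ cell forms Hist1h1t, Hist1h2aa and Hist1h2ba are among those not analysed here.

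The counted region decided which part of a histone message was measured, as the map of regions against coding bases shows. Of the 13 genes, 10 could be placed on an annotated gene of matching length within 50 bp, and Hist1h1d, Hist1h3f and Hist3h2a could not. The Hist2h3c2 region, 220 bp on mm9 chr3:96042431-96042650, held 194 of the gene's 408 coding bases and ended before its stem-loop. All 220 bases also stand in Hist2h3c1 without a mismatch, so reads there cannot be assigned to Hist2h3c2 alone. For 6 genes (Hist1h1c, Hist1h2bc, Hist1h2bp, Hist1h2br, Hist2h2be and Hist2h3c1) the region began 800 bp inside the gene, past all coding bases. The Hist1h2ac region held 21 of 390 coding bases and the Hist4h4 region held none, reaching only 18 bp into the stretch up to the stem-loop's end. Hist1h2be had a region of 36655 bp (mm9 chr13:23675939-23712593) that held all 378 coding bases in an annotated gene that is mostly intron. A second region under the symbol Hist1h2be, 1131 bp on mm9 chr13:23712897-23714027, began and ended exactly 400 bp inside the gene that the authors' table names Hist1h1e. The long region runs 97 bp into that same gene, the only other protein-coding histone gene that GENCODE places within it. That second region is not the longest for its symbol and stayed outside the fit, and its values are given as the Hist1h1e-position region. All regions are listed on the plus strand, so antisense transcripts cannot be told apart from the genes.

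**Figure D1:**
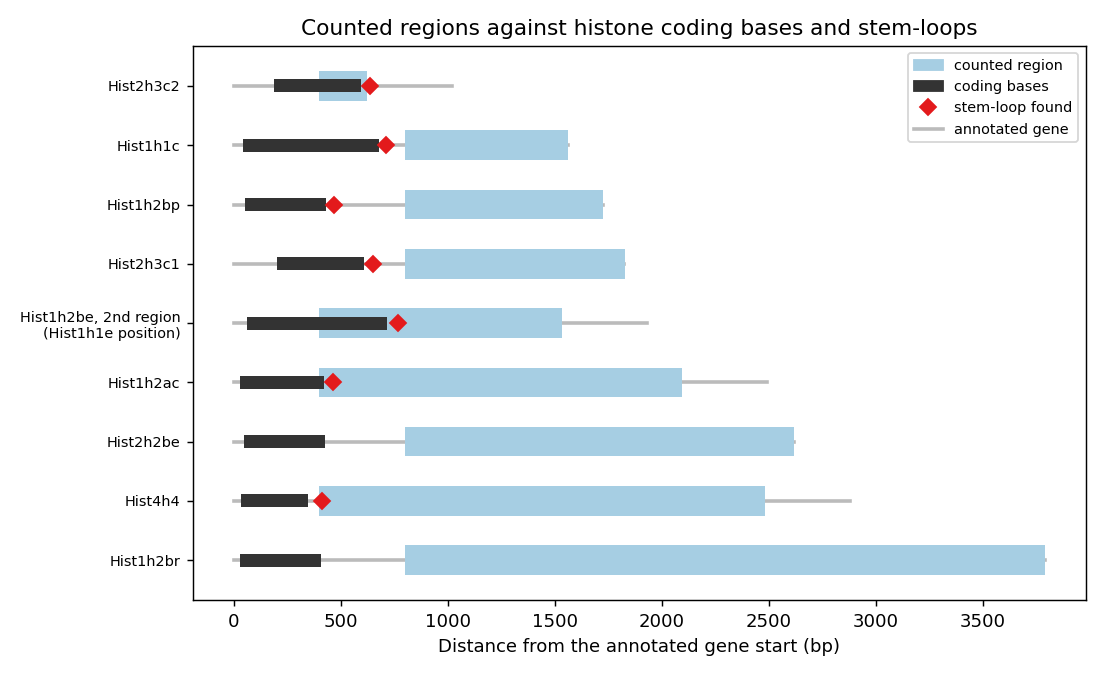
Position of each counted region against its gene. The horizontal axis is distance in bp from the annotated gene start. Blue blocks are counted regions, dark bars coding bases, red diamonds stem-loops found and grey lines annotated genes, for 8 histone genes and the Hist1h1e-position region. Hist1h2be (36655 bp) and Hist1h2bc (7482 bp) are left off the scale. The Hist2h3c2 region lies on coding bases, while 6 of the genes drawn, Hist4h4 among them, have regions wholly past them.

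The libraries differed in depth and background. Over listed genes, 5507288 and 4480809 reads were recovered from labelled knockouts 13 and 16, against 5445240 to 6143263 in the controls. The ribosomal precursor Rn45s took 14.2% and 8.88% of tags in labelled knockouts 13 and 16, against 16.8% to 23.5% in controls. As a measure of background, 409 olfactory and vomeronasal receptor genes, silent in most tissues, carried 0.480 and 1.499 tags per kilobase in labelled knockouts 13 and 16, against 0.159 to 0.396 in controls. The median gene had a log2 ratio to the controls of 0.80 in library 13 and 1.28 in library 16, so differences of single genes are also given relative to that median. Itgb1, the targeted gene, had 446.36 and 186.36 in labelled knockouts 13 and 16, against 272.73, 426.36 and 430.91 in controls 9, 10 and 12 (limma, log2 change -0.35, adjusted p = 0.621). Its value pools all tags of the gene's region and does not single out the floxed part. The label of library 13 could therefore not be checked on it. With this background subtracted and TMM factors (which scale each library to the bulk of its genes) applied, Itgb1 was at 275 and 125 in labelled knockouts 13 and 16, against 394, 369 and 442 in controls, so the place of library 13 turned with scaling. All 13 Rathke's pouch markers were listed and none was at 0 in every library, and the same held for 12 mesenchyme and 12 hypothalamus and neuron markers. None of the 3 listed germ cell genes was at 0 in every library either, so this does not show which tissues were present.

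Histone levels stood at opposite extremes in the labelled knockouts. Summed over the 13 genes, the level was 1017 in library 13 and 309 in library 16, against 393, 675 and 463 in controls 9, 10 and 12 (mean 510.0 ± 147, SD, n = 3). Library 13 was above every control and library 16 below every control, in the sum and within each of the classes H1, H2A, H2B and H3. The single H4 gene, at 6.36 and 3.64 in labelled knockouts 13 and 16, did not follow this order against its controls (0 to 6.36). No fold between genotypes describes both libraries: the log2 ratio of the sum to the control mean was 0.996 for library 13 and -0.72 for library 16. Hist1h2be gave 53.0% of the control sum, and with Hist2h3c2 79.3%. In whole-tissue RNA, the share of cells in S phase and the histone RNA per cell cannot be told apart. The sum also counts stretches past the coding bases and the mostly intronic Hist1h2be region, so it is not a measure of message alone.

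No histone gene passed the test between genotypes. Limma on log2(value + 1), fitted to all 19313 genes whose mean reached 1 tag, called 0 of 13 members at an adjusted p under 0.05 and 0 of all genes (0%). None of the 13 had an unadjusted p under 0.05, against 5636 of all genes tested (29.2%). This fit tests a change from 0, while the median gene had a log2 change of 0.97, so its p-values do not measure departure from the median gene. With TMM factors (library scaling to the bulk of genes) in the same limma test, 386 of all genes and 0 of 13 members had an unadjusted p under 0.05. Adjusted p-values of the members ran between 0.325 for Hist4h4 and 0.993 for Hist1h1c. With edgeR's quasi-likelihood test on the recovered reads 0 of all genes were called and 478 had an unadjusted p under 0.05. DESeq2 on those reads gave an adjusted p to 965 genes and called 25 of them. Of the histone members only Hist1h2be had an adjusted p there, 0.704, so the other 12 were not tested by it. An exact permutation test of a single gene over the 10 ways to place 2 of 5 libraries cannot go below p = 0.1.

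By position, library 13 was above every control in 10 of 13 members, a share near that of all genes tested (73.3%). Library 16 was below every control in 6 of 13 members, against 7.86% of all genes tested. These 6 were Hist1h1c, Hist1h2be, Hist1h3f, Hist2h2be, Hist2h3c2 and Hist3h2a, and in each of them library 13 was above every control, a pairing seen in 6.98% of all genes tested. A low library 16 was not particular to these members. In lists described below, it was under every control in 5 of 10 replication-independent histones and 9 of 20 G2 and M phase genes. The same held for 5 of 13 Rathke's pouch and 5 of 12 mesenchyme markers, but only 7 of 43 S phase genes and 4 of 19 histone chaperones. Library 13 exceeded library 16 in 11 of 13 members, against 36.7% of all genes tested. The exceptions were Hist1h2bp and Hist1h2br. Library 16 was above every control in 2 members, Hist1h2bp and Hist1h2br, against 72.9% of all genes. Both labelled knockouts lay above every control in 1 member, Hist1h2br (50.2% of all genes), and both lay below every control in 0 members (0.202%).

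Histone H3 forms the nucleosome core with H4. Hist2h3c2, an H3 gene of the Hist2 cluster, had 242.73 and 48.18 in labelled knockouts 13 and 16, against 104.55, 165.45 and 132.73 in controls 9, 10 and 12. Library 13 was the highest of the 5 and library 16 the lowest, with a 5.04-fold gap between them, and the labelled knockouts enclosed all controls. To the control mean the ratio was 1.81 for library 13 and 0.359 for library 16, and the fitted log2 change was -0.28 (SE 0.55, limma, adjusted p = 0.702). Library 16 held 53 reads, for which the exact Poisson interval (95%) spans 36.1 to 63.0 tags, below the lowest control value, and intervals of this kind cover counting error only. Hist1h3f, an H3 gene of the Hist1 cluster with a region of 203 bp, had 72.73 and 20 in labelled knockouts 13 and 16, against 22.73, 49.09 and 24.55 in controls. Library 13 was again highest and library 16 lowest, but the library 16 interval of 12.53 to 30.28 tags held 2 of the control values. Hist2h3c1 had 1.82 and 0 in labelled knockouts 13 and 16, against 0.91, 2.73 and 0 in controls, so its groups overlapped. The 0 reads of library 16 allow up to 2.73 tags. Per kilobase, Hist2h3c1 averaged 1.18 in controls and Hist2h3c2 610 ± 139 (SD, n = 3). The Hist2h3c1 region lies past the coding bases and stem-loop and the Hist2h3c2 region before the stem-loop.

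Histone H2B pairs with H2A in the nucleosome. Hist1h2be over its long region had 535.45 and 180.91 in labelled knockouts 13 and 16, against 208.18, 365.45 and 237.27 in controls 9, 10 and 12. Library 13 was highest and library 16 lowest, and the fitted log2 change was 0.25 (SE 0.54, limma, adjusted p = 0.731). At the receptor-gene background of library 16 a region of this length would hold 54.9 tags, 30.4% of its value there. Hist2h2be, the H2B gene of the Hist2 cluster, had 43.64 and 6.36 in labelled knockouts 13 and 16, against 20, 24.55 and 19.09 in controls. The labelled knockouts enclosed the 3 close control values, with a 6.86-fold gap between them, and library 16 rested on 7 reads (2.56 to 13.1 tags). Hist1h2bc had 31.82 and 20.91 in labelled knockouts 13 and 16, against 10, 22.73 and 13.64 in controls, so library 16 lay within the controls. The remaining H2B genes departed from the others. Hist1h2br, named after its values were seen, had 8.18 and 10.91 in labelled knockouts 13 and 16, against 2.73, 5.45 and 3.64 in controls. It was the member with both labelled knockouts above all controls, a position held by 50.2% of all genes tested. The exact permutation test (2-sided) gave p = 0.1, the smallest possible, but the gene was named with this position known. That p-value is therefore no support for a change. Expected background equals 41.1% of the library 16 value of Hist1h2br. Hist1h2bp had 0.91 and 1.82 in labelled knockouts 13 and 16, against 0.91 in each control, which is 1 or 2 reads a library.

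Linker histone H1 binds the DNA between nucleosomes. Hist1h1c had 24.55 and 7.27 in labelled knockouts 13 and 16, against 10, 15.45 and 16.36 in controls. Library 13 lay above and library 16 below every control, and their average left a fitted log2 change of -0.01 (SE 0.72, limma, adjusted p = 0.993). Hist1h1d had 6.36 and 2.73 in labelled knockouts 13 and 16, against 5.45, 4.55 and 0 in controls, and library 16 did not exceed its expected background. The Hist1h1e-position region had 588.18 and 130 in labelled knockouts 13 and 16, against 331.82, 435.45 and 338.18 in controls. Library 13 was highest and library 16 lowest there too, a 4.52-fold gap, and expected background equals 1.30% of the library 16 value. With the shortest region per symbol in the fit, its log2 change was -0.40 (SE 0.54, limma, adjusted p = 0.579). The authors' deposited table of changes lists 1140 genes, and there Hist1h1e is the 1 histone symbol of this family, with a log2 fold change of -0.12 and a p-value of 0.00208, while another of its fold columns reads 0.657. Its values per genotype, with no unit, are 24 in KO and 26 in WT, and that table does not name the libraries behind these values.

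Histone H2A is the partner of H2B. Hist1h2ac had 25.45 and 3.64 in labelled knockouts 13 and 16, against 3.64, 3.64 and 6.36 in controls. Library 13 lay above every control, while library 16 equalled 2 controls and rested on 4 reads. Hist3h2a, of the Hist3 locus, had 17.27 and 2.73 in labelled knockouts 13 and 16, against 3.64, 8.18 and 7.27 in controls, with library 13 highest and library 16 lowest. Expected background equals 69.7% of the library 16 value of Hist1h2ac and 65.3% of that of Hist3h2a. For H4, the single gene Hist4h4 had 6.36 and 3.64 in labelled knockouts 13 and 16, against 0, 6.36 and 0.91 in controls, and its groups overlapped.

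**Figure D2:**
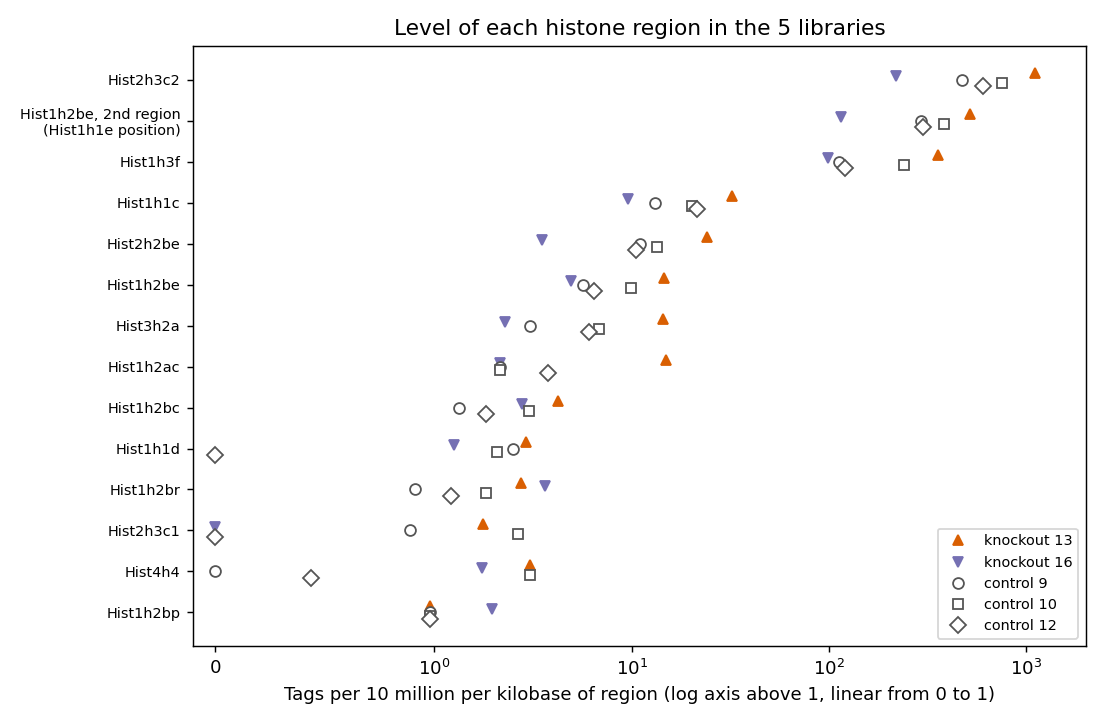
Level of each histone gene in each library. The horizontal axis is tags per 10000000 and per kilobase of region, logarithmic above 1 and linear from 0 to 1. Filled triangles are labelled knockouts 13 and 16 and open symbols controls 9, 10 and 12. Hist2h3c2, at 1103 and 219 tags per kilobase in labelled knockouts 13 and 16 against 475 to 752 in controls, shows the 2 labelled knockouts on either side of all controls.

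Per kilobase of counted region the controls fell into a steep order. Hist2h3c2 averaged 610 ± 139 tags per kilobase (SD, n = 3), the Hist1h1e-position region 326 ± 51.4, and Hist1h3f 158 ± 72.5, with no overlap of their ranges. After these came Hist1h1c at 18.3 ± 4.52, Hist2h2be at 11.7 ± 1.61, Hist1h2be at 7.37 ± 2.28 and Hist3h2a at 5.35. The ranges of Hist1h1c and Hist2h2be overlapped, as did those of Hist1h2be and Hist3h2a. The other 7 genes averaged between 0.983 and 2.69 tags per kilobase in controls, and neighbours among them overlapped in range. Since the regions cover different parts of the messages, this is an order of counted regions and not of whole genes.

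Relative to the median gene the members separated the labelled knockouts. For library 13 the median over the 13 members was 0.22 on the log2 scale, with 11 above the median gene. In library 16 it was -1.81, with 12 below, and in controls 9, 10 and 12 it was -0.06, 0.02 and 0.02. A relative ratio above 0 in library 13 and below 0 in library 16 was held by 10 of 13 members, against 27.3% of all genes tested. The largest gap in library 16 was -2.86, for Hist2h2be, followed by -2.71 for Hist2h3c2, while Hist1h2br was at 0.03. Averaged over the labelled knockouts, the median relative log2 change was -0.69, with 10 members below the median gene and 3 above, and this value depended on library 16: without it the median was 0.24, and without library 13 it was -1.66. Genes with short regions were lower in library 16 as a whole: over the 943 genes of at most 2000 bp the median relative log2 ratio was -0.75 in library 16 and -0.07 in library 13, and 8 of the 13 members are of that size. The part of region length in the histone values was not tested.

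Subtracting the receptor-gene background and applying TMM factors kept the split of the labelled knockouts but brought library 13 close to the controls. Hist2h3c2 was then at 157 and 51.6 in labelled knockouts 13 and 16, against 158, 150 and 139 in controls, so that library 13 lay within the controls and library 16 below them. Library 13 also moved within the controls in Hist1h1c, Hist1h1d and Hist2h2be, and library 16 moved below them in Hist1h2ac, Hist1h2bc and Hist1h2bp. The Hist1h1e-position region was at 381 and 138 in labelled knockouts 13 and 16, against 502, 393 and 353. On this scale library 13 was above every control in 6 of 13 members (23% of genes tested) and library 16 below every control in 9 of 13 (36.3%), counting also Hist1h2bp and Hist2h3c1, which fell under the mean filter there. Both held in 5 members (10.4%), and library 13 exceeded library 16 in 11 of 13 (45.4%). Of the 11 members tested on this scale, 10 had a relative ratio above 0 in library 13 and below 0 in library 16, against 27.9% of genes tested. The median over members was 0.33 in library 13 and -1.29 in library 16. The sum over the 13 genes was 641 and 240 in labelled knockouts 13 and 16, against 572, 589 and 474 in controls.

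**Figure D3:**
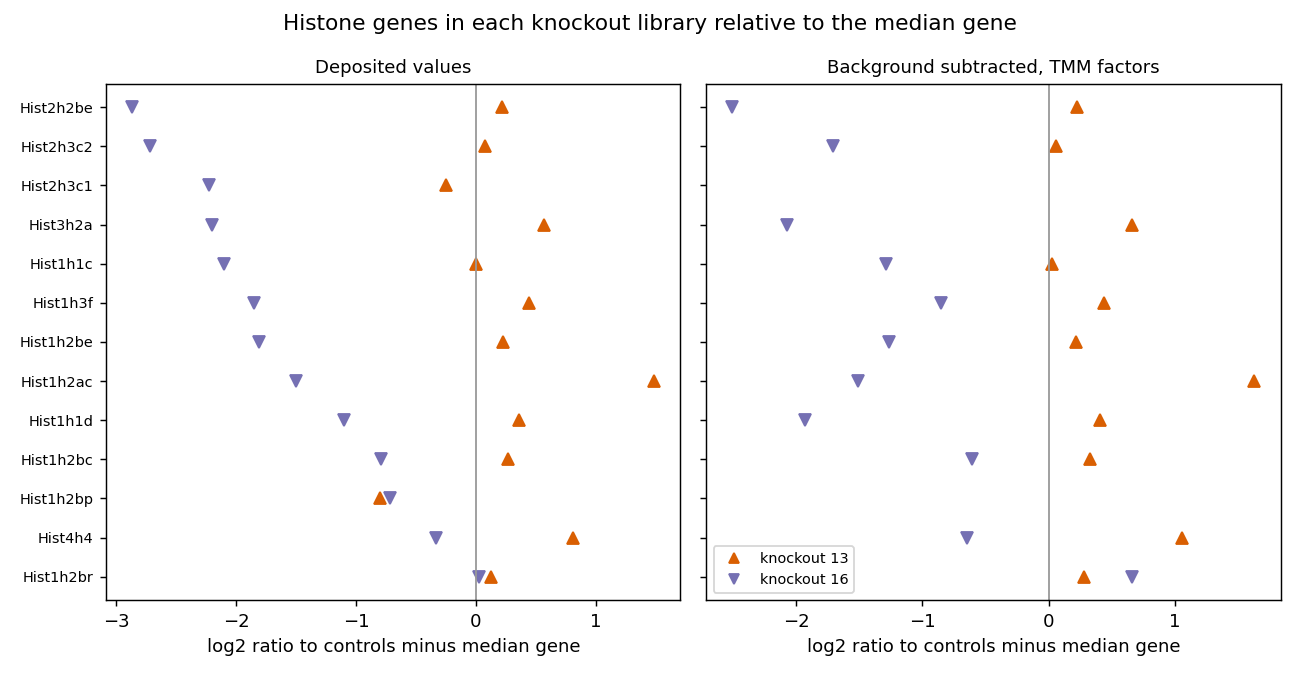
Histone genes in each labelled knockout relative to the median gene. The horizontal axis is the log2 ratio to the controls minus that of the median gene; upward triangles are library 13 and downward triangles library 16. The left panel uses deposited values for 13 genes and the right panel background-subtracted values with TMM factors for the 11 genes tested there. Library 16 lies left of 0 for 12 of 13 genes on the left and 10 of 11 on the right.

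Ratios taken within a library do not depend on how libraries are scaled, though they do depend on background. The Hist1h1e-position region divided by Hist2h3c2 gave 2.42 and 2.70 in labelled knockouts 13 and 16, against 3.17, 2.63 and 2.55 in controls, while each of these regions differed more than 4-fold between the labelled knockouts. Library 13 had the lowest of these ratios and library 16 lay within the controls. Hist1h3f divided by Hist2h3c2 gave 0.300 and 0.415 in labelled knockouts 13 and 16, against 0.217, 0.297 and 0.185, both labelled knockouts lying above every control. For library 13 the margin was small, at 0.2996 against 0.2967 in control 10, and the library 16 ratio rested on 22 and 53 reads. Hist2h3c2 divided by Pcna, the replication clamp and chosen after its values were seen, gave 2.57 and 2.21 in labelled knockouts 13 and 16, against 2.40, 2.56 and 2.43. Pcna itself had 94.55 and 21.82 in labelled knockouts 13 and 16, against 43.64, 64.55 and 54.55 in controls. Divided by Mki67, a marker of cycling cells, Hist2h3c2 gave 0.211 and 0.173 in labelled knockouts 13 and 16, against 0.266, 0.255 and 0.189. Against H3f3b, which encodes the replication-independent histone variant H3.3 from a polyadenylated message, it gave 0.323 and 0.228 in labelled knockouts 13 and 16, against 0.370, 0.300 and 0.305. In the ratios to Pcna, Mki67 and H3f3b as deposited, library 16 lay below every control and library 13 within or, for Pcna, above them. The margin of library 13 for Pcna was small, at 2.567 against 2.563 in control 10. Library 16 held only 53 reads of Hist2h3c2 and 21.82 tags of Pcna. Counting error was not computed for any of these ratios, so their positions against the controls may lie within it. With background subtracted, library 16 remained below every control in the ratio to H3f3b, at 0.229 against 0.300 to 0.370. It lay within the controls in the ratio to Mki67, at 0.199 against 0.190 to 0.270, and above every control in the ratio to Pcna, at 2.79 against 2.44 to 2.61.

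The other genes of histone supply and of the cell cycle are given from chosen lists, in none of which a gene passed the limma threshold. Of 10 replication-independent histones tested, 8 lay below the median gene and 2 above, and the list's median relative log2 ratio was 0.26 in library 13 and -1.73 in library 16. H3f3b had 750.91 and 211.82 in labelled knockouts 13 and 16, against 282.73, 551.82 and 434.55 in controls (limma, adjusted p = 0.969). H2afy, which encodes the variant macroH2A, had 561.82 and 233.64 in labelled knockouts 13 and 16, against 192.73, 317.27 and 368.18. Library 13 was highest in both, while library 16 was lowest in H3f3b and within the controls in H2afy. With background subtracted and TMM factors, library 13 lay within the controls in both and library 16 below them. Of 25 genes for histone mRNA synthesis and processing, 22 lay below the median gene, with medians of 0.08 in library 13 and -1.45 in library 16. Slbp, the stem-loop binding protein, also named after its values were seen, had 93.64 and 39.09 in labelled knockouts 13 and 16, against 35.45, 50 and 59.09 in controls, so library 16 lay within the controls. Its background-subtracted TMM values were 57.2 and 23.6 in labelled knockouts 13 and 16, against 49.2, 41.1 and 59.8, which puts library 16 below every control. Pou2f1, the octamer-binding factor, had 410.00 and 325.45 in labelled knockouts 13 and 16, against 153.64, 265.45 and 269.09, with both labelled knockouts above all controls. This position turned with background subtracted and TMM factors, at 223 and 130 in labelled knockouts 13 and 16, against 179, 191 and 258. Xpo1, a nuclear export receptor, had 870.91 and 204.55 in labelled knockouts 13 and 16, against 297.27, 498.18 and 493.64, with library 13 highest and library 16 lowest on both scales.

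Of 19 histone chaperones 18 lay below the median gene, with medians of 0.13 in library 13 and -1.25 in library 16. Atrx, which with Daxx deposits the variant H3.3, had 892.73 and 317.27 in labelled knockouts 13 and 16, against 303.64, 590.00 and 609.09 in controls. Nap1l1, a chaperone of H2A and H2B, had 526.36 and 190.91 in labelled knockouts 13 and 16, against 167.27, 459.09 and 347.27. Library 16 lay within the controls in both as deposited. With background subtracted and TMM factors it lay below every control in both, at 130.4 for Atrx against 408 to 615, and at 169 for Nap1l1 against 244 to 407. Of 43 S phase genes 34 lay below the median gene, with medians of 0.18 in library 13 and -1.04 in library 16. The 2 of highest level, the primase and polymerase subunits Pola1 and Prim2, lie in regions of 326590 and 215148 bp. Pola1 had 504.55 and 523.64 in labelled knockouts 13 and 16, against 159.09, 319.09 and 323.64, and Prim2 had 333.64 and 539.09, against 130, 200.91 and 208.18. In these long genes library 16 lay above every control. With background subtracted and TMM factors, Pola1 was at 225 and 36.7 in labelled knockouts 13 and 16, against 113, 172 and 284. Prim2 was at 149 and 233 in labelled knockouts 13 and 16, against 113, 105 and 182, so library 16 lay below every control in Pola1 and above every control in Prim2. Of 20 genes of G2 and M phase 17 lay below the median gene, with medians of 0.31 in library 13 and -1.61 in library 16. Mki67 had 1150.91 and 279.09 in labelled knockouts 13 and 16, against 393.64, 649.09 and 703.64 in controls, with library 13 highest and library 16 lowest. Top2a, the topoisomerase that separates replicated chromosomes, had 680.91 and 158.18 in labelled knockouts 13 and 16, against 328.18, 512.73 and 470.00, in the same order. With background subtracted and TMM factors this order held for Mki67, while library 13 was below every control for Top2a, at 432 against 453 to 486.

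Cell type marker lists also differed between the labelled knockouts. The Rathke's pouch list had medians of 0.51 in library 13 and -1.63 in library 16, and its summed level was 3172 and 1551 in labelled knockouts 13 and 16, against 974 to 1671 in controls. Mesenchyme markers had medians of -0.41 and -1.73 in labelled knockouts 13 and 16, with a summed level of 1494 and 918, against 773 to 1468 in controls. Hypothalamus and neuron markers had medians of -0.45 and -1.11 in labelled knockouts 13 and 16, with a summed level of 1444 and 1540, against 1015 to 1612. Endothelial markers had medians of -0.09 and -0.22 in labelled knockouts 13 and 16, with a summed level of 980.0 and 1774, against 488 to 778. Markers of other tissues were above the median gene in library 16: the medians were 0.31 for 9 erythroid markers, 0.68 for 12 skeletal muscle markers and 0.85 for 12 oral and surface epithelium markers. In library 13 they were -0.46, 0.21 and 0.12. Summed levels were 352 and 820.0 for erythroid, 449 and 832 for muscle and 658 and 947 for oral epithelium markers in labelled knockouts 13 and 16, against 225 to 516, 136 to 345 and 272 to 468 in controls. Tested markers have a mean of at least 1 tag, so by that filter none could be at 0 in all libraries. The germ cell list had 3 of its 8 genes listed, summing to 30.0 and 105 in labelled knockouts 13 and 16, against 8.19 to 23.6. With background subtracted none of the 3 reached a mean of 1 tag, and Ddx4 was at 0 in every library. The part of cell type composition, reads over listed genes or background in the histone values was not tested.

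**Figure D4:**
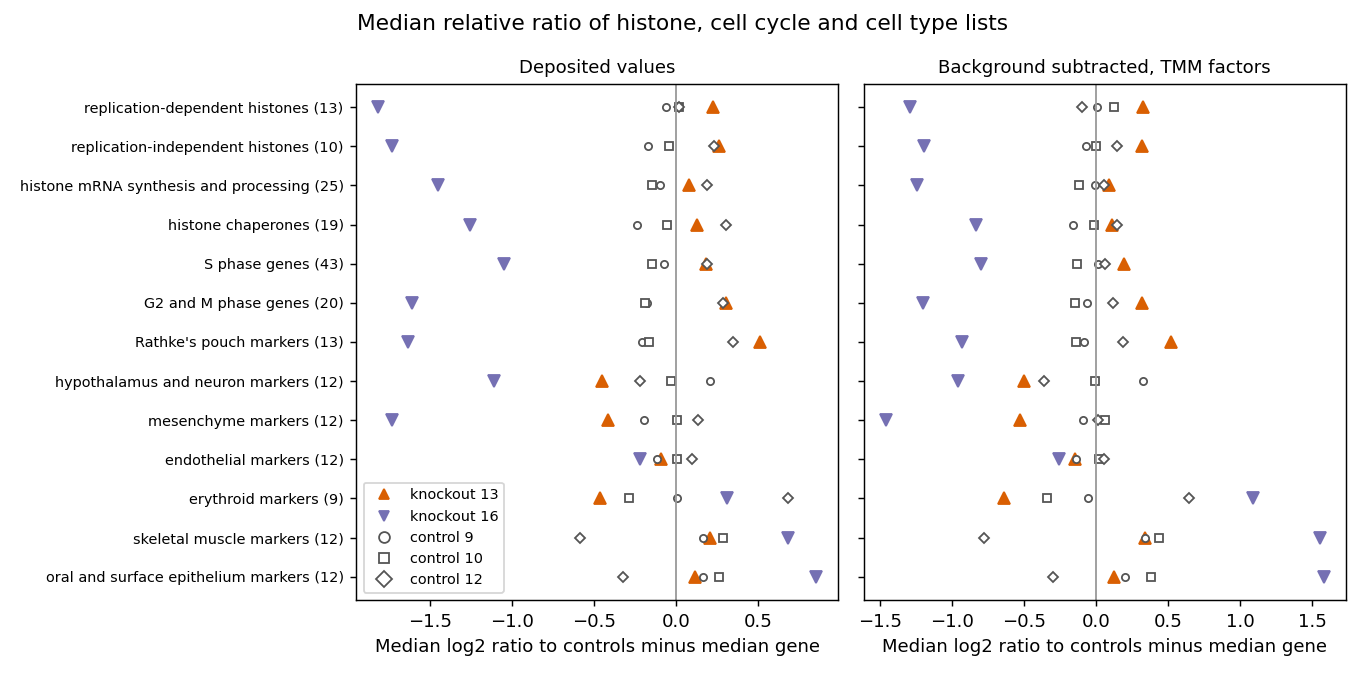
Median relative log2 ratio of each gene list in each library. The horizontal axis is the log2 ratio to the controls minus that of the median gene, and each row is a list with its number of genes tested. Filled triangles are labelled knockouts 13 and 16 and open symbols the controls; the left panel uses deposited values and the right panel background-subtracted values with TMM factors. On the left, replication-dependent histones have the lowest library 16 median, at -1.81, beside -1.73 for replication-independent histones and for mesenchyme markers, while on the right mesenchyme markers are lowest, at -1.46, against -1.29 for replication-dependent histones.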

How the data were processed

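RNA was measured in 2 labelled knockout and 3 control pituitaries at e12.5. Libraries were stranded (ScriptSeq v2), from total RNA after Ribo-Zero treatment, and read on a HiSeq 2000, per the labels' protocols. Bowtie2, HOMER, edgeR and the build mm9 are named without role or version, per the submitters' processing notes. The all-gene table holds, per the file headers, a signal deposited by the authors: tags in a gene region scaled to 10000000 tags a library. The authors' deposited table of changed genes gives a log2 fold change, linear fold columns (ratios), p-values and a score for each genotype with no unit. Every signal value was a whole multiple of 1 read (100% within 0.01 reads), so the authors' deposited values could also be tested as counts.

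The table lists 21022 regions, of which 47 repeat another row. Each symbol was represented by its longest region, and genes with a mean of at least 1 were tested (19313). The main test was limma 3.58.1 with trend on log2(value + 1) in R 4.3.3, over all 5 libraries, 2-sided, with Benjamini-Hochberg adjustment at 0.05. It was also run on simulated counts with equal library scale and no background difference. These libraries differ in both, so that run does not show how the test performs on them. Fold changes on this scale understate changes of low genes. A relative value is a gene's log2 ratio to the controls, or its fitted log2 change, minus the median of that quantity over all genes tested. Alternatives were edgeR 4.0.16 and DESeq2 1.42.0 on recovered reads, their scaling factors, subtraction of receptor-gene tags per kilobase times region length with TMM factors, pseudocounts, filters, the shortest region and leaving out each library. Leaving out a labelled knockout leaves 1, assumed to vary like the controls. Poisson intervals are exact at 95%, and the limit for 0 reads is 3 counts.

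The members and lists were chosen with earlier results of these data known. Named genes were the 3 members of highest mean level in each class, the Hist3 and Hist4 members, called genes, the 2 of highest level in each list where none was called, and Itgb1. Cell type lists are given as lists without their 2 genes. Slbp and Pcna were added after their values were seen, and the other members are given for completeness. Lists are described by counts and medians, with no test of a list.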

Additional observations from a re-analysis of the deposited data

How the results depend on the processing

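No histone member and no gene of the other lists was called under the alternatives that tested them. DESeq2 on recovered reads, which called 25 of all genes where limma called 0, gave an adjusted p to 1 histone member and 12 genes of the other lists only. The median relative log2 change of the members (-0.69) was -0.49 with TMM factors, -0.50 with DESeq2 size factors, -0.47 with background subtracted and TMM factors, -0.45 with edgeR's test, -0.52 with DESeq2's test, -0.54 with a pseudocount of 5 and -0.25 when centred on regions of at most 2000 bp. Leaving out 1 library gave -1.66 to 0.24, the direction turning without labelled knockout 16. The log2 ratio of the summed level (0.996 in library 13 and -0.72 in library 16) was 0.24 and -1.91 with TMM factors, 0.24 and -1.86 with DESeq2 size factors, and 0.23 and -1.19 with background subtracted and TMM factors. With the shortest region, added after seeing the data, it was -1.24 in library 16. Without 1 control, also added after seeing the data, it was 0.84 to 1.25 in library 13 and -0.88 to -0.47 in library 16.

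Of single members, a pseudocount of 5 turned the relative change of Hist1h2ac to -0.0033, of Hist1h2br to -0.073 and of Hist4h4 to -0.27. Leaving out 1 library moved it between -1.10 and 0.35 for Hist1h1d, -1.50 and 1.48 for Hist1h2ac, -0.79 and 0.26 for Hist1h2bc, -1.81 and 0.22 for Hist1h2be, -1.85 and 0.43 for Hist1h3f, -2.87 and 0.21 for Hist2h2be, -2.72 and 0.067 for Hist2h3c2, -2.20 and 0.56 for Hist3h2a, and -0.34 and 0.92 for Hist4h4. The direction turned without labelled knockout 16 in 7 of these 9, and without labelled knockout 13 in Hist1h2ac and Hist4h4. Leaving out a control turned it too: Hist1h1d was at 0.32 and Hist4h4 at -0.19 without control 9, and Hist1h2ac at -0.24 without control 10. The cause of these turns was not tested. The other 171 values of single members kept their direction. Depth limits members with few reads, such as Hist1h2ac with 4 in library 16. No paired analysis was run. Replicate numbers are not shared between the groups and do not show which embryos came from the same litter.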
